A study of Homo sapiens with 6 samples.

Results

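Mitochondrial ribosomal protein genes encode the protein part of the ribosome that works inside mitochondria. They were taken here by symbol, as MRPL or MRPS followed by a number and at most 1 letter A to C, which gave 78 of the 78932 rows of the count table, 49 with an MRPL symbol and 29 with an MRPS symbol. Of these, 77 passed the filter on low counts and were tested among 18040 genes. MRPL53 had 0 counts in all 6 libraries and was not tested. A count of 0 allows a level of up to 3 counts, or 0.0720 to 0.0777 CPM (counts per 1000000 counts of the library) per library, counting error only. The symbol decided membership and no measured value did.

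The study treated HCC1937 cells with docetaxel. HCC1937 is a triple negative breast cancer cell line with a mutated BRCA1 gene, and docetaxel is a taxane that stabilises microtubules and blocks mitosis. The 3 docetaxel libraries came from cells given 8 nM for 24 h and the 3 control libraries from cells of the same line without docetaxel; the labels do not say whether control cells received the solvent. All 6 were poly(A)-enriched mRNA libraries from 1 line, so each result holds for 1 cell line, dose and time.

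Mitochondrial DNA encodes ribosomal RNAs, transfer RNAs and a small set of proteins, which are subunits of oxidative phosphorylation. Every protein of the mitochondrial ribosome is encoded in the nucleus, made in the cytosol and imported. Some of these proteins descend from bacterial ribosomal proteins, and others were added during the evolution of mitochondria. The ribosome has a small subunit, which reads the messenger RNA, and a large subunit, which forms the peptide bonds.

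Library totals ranged from 38622062 to 41675186 counts. Separate cultures or days are not stated for the replicates, although they are named as biological, and the p-values therefore reflect variation among these 6 libraries only. KRT8, KRT18 and KRT7, keratins of simple epithelium, averaged 1965, 666 and 476 CPM, whereas EPCAM had 0.0666, CDH1 0.689 and KRT19 0.105 CPM. Of the blood markers, PTPRC had 1 read and CD3E 2 reads in all 6 libraries together. Among fibroblast genes VIM averaged 362 and COL1A1 140 CPM, while COL1A2 had 0.0462 and PDGFRB 4.57 CPM. Among endothelial markers, PECAM1 averaged 1.98 and CDH5 0.483 CPM.

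After docetaxel, most mitochondrial ribosomal protein genes were not called, and more were called higher than lower. With edgeR's quasi-likelihood test and an adjusted p under 0.05 over all tested genes, 13 of 77 were higher (16.9%) and 4 were lower (5.19%), and 60 were not called. Over all tested genes, 9.14% were called higher, 7.82% lower and 17.0% in either direction. The median log2 fold change of the 77 genes was 0.06, against 0.01 over all tested genes. It stayed above 0 under every scaling tried, between 0.02 with library-size scaling and 0.07 with upper-quartile scaling. The values ranged from -0.41 for MRPL42 to 0.29 for MRPL41, with a median standard error of 0.06, and 48 of 77 were positive. All 3 docetaxel libraries lay above all 3 control libraries for 24 genes (31.2%, against 17.0% of all tested genes) and below them for 8 genes (10.4%, against 15.0%). Of all tested genes, 32.0% did not overlap in one direction or the other. The counts changed with the library left out: 6 higher and 2 lower without control 2, 5 and 3 without docetaxel 2, and 8 and 1 without docetaxel 3. Library-size scaling gave 6 higher and 4 lower, with 1096 higher and 1866 lower over all tested genes against 1649 and 1410 with TMM scaling. In bulk RNA, fewer cells and less RNA per cell cannot be told apart.

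**Figure D1:**
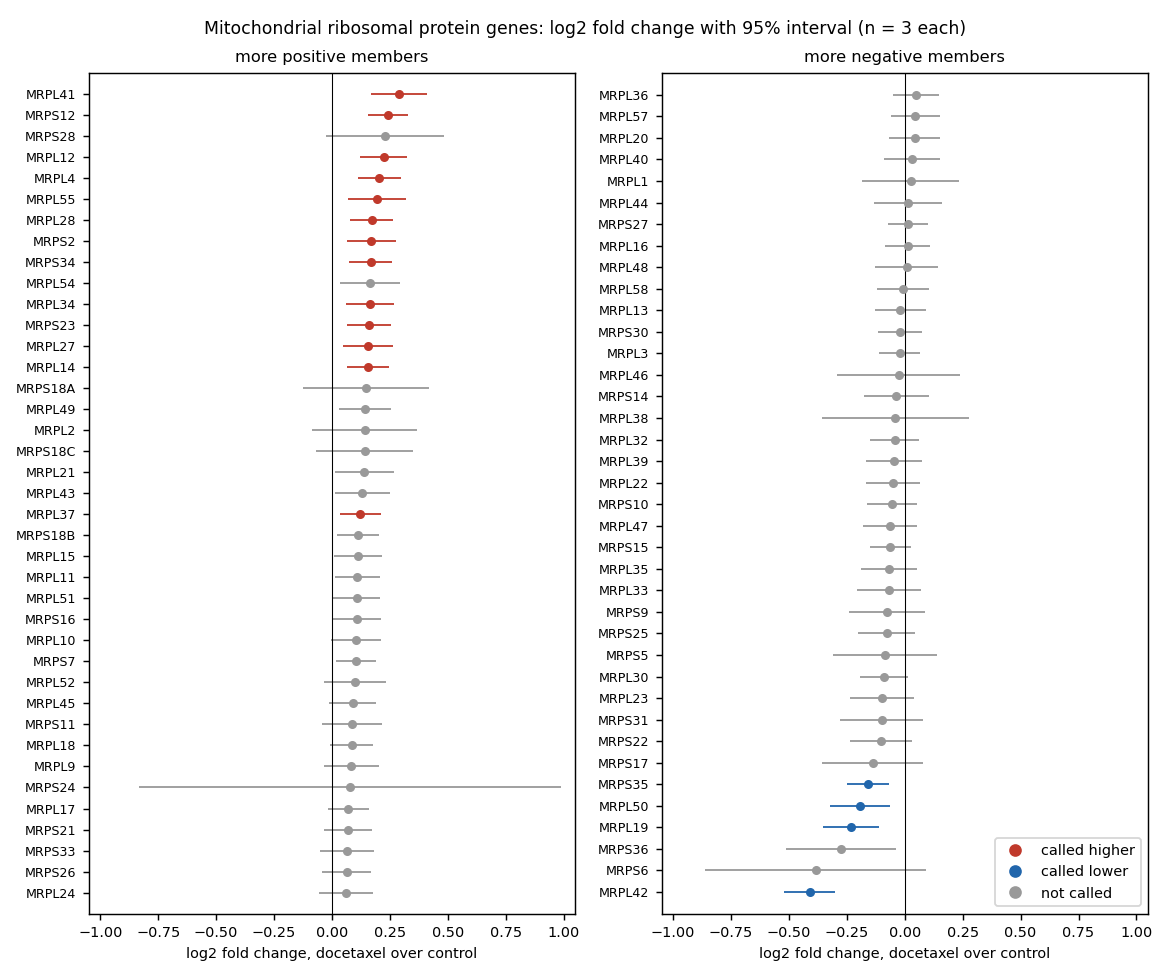
Log2 fold change of docetaxel over control (x axis) for the 77 tested genes (y axis), sorted by value, with 95% intervals computed from the edgeR fit (n = 3 libraries each). Red points were called higher, blue lower and grey were not called. The 13 genes called higher lie between 0.12 and 0.29 and the 4 called lower between -0.41 and -0.16.

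Among the genes called higher, 4 kept the call when any of the 6 libraries was left out. MRPS12 is the homologue of bacterial S12, which lines the decoding centre of the small subunit. It had 180, 184 and 187 CPM in the docetaxel libraries, against 155, 154 and 156 CPM in the control libraries. The groups were further apart than the libraries within them, and the log2 fold change was 0.24 ± 0.04 (SE, n = 3 each; edgeR adjusted p = 0.000154). MRPL41, a large-subunit protein without a bacterial counterpart, had 235, 237 and 215 CPM with docetaxel, against 198, 167 and 197 CPM in control. Control 2 was the lowest library, and the log2 fold change was 0.29 ± 0.06 (edgeR adjusted p = 0.00170). MRPL12 is the homologue of the bacterial stalk protein that recruits translation factors. It had 121, 134 and 124 CPM with docetaxel, against 113, 101 and 110 CPM in control (log2 fold change 0.22 ± 0.05, edgeR adjusted p = 0.00194). MRPL4, whose bacterial homologue lines the tunnel through which the new peptide leaves, had 142, 144 and 141 CPM with docetaxel, against 127, 117 and 128 CPM in control (0.20 ± 0.05, edgeR adjusted p = 0.00200). For MRPL12 and MRPL4, too, control 2 was lowest and the groups did not overlap. Other genes overlap 68.2% of the exonic bases of MRPL12 and 21.4% of those of MRPL4, so the counts of both are uncertain. With offsets for GC content and length, described further on, the log2 fold changes were 0.11 for MRPS12, 0.03 for MRPL41, 0.02 for MRPL12 and -0.0012 for MRPL4, and edgeR called none of the 4 (adjusted p = 0.102, 0.794, 0.850 and 0.992).

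The other 9 genes called higher each lost the call when 1 or more of the libraries was left out. MRPL28 had 163, 172 and 157 CPM with docetaxel, against 150, 141 and 146 CPM in control (log2 fold change 0.17 ± 0.04, edgeR adjusted p = 0.00696). MRPS34, a small-subunit protein whose loss in patients causes a form of Leigh syndrome, had 240, 274 and 249 CPM with docetaxel, against 231, 216 and 233 CPM in control (0.17 ± 0.05, edgeR adjusted p = 0.0101). Docetaxel 2 was the highest and control 2 the lowest library in both genes. MRPL14, which sits at the face where the subunits join, had 186, 193 and 182 CPM with docetaxel, against 174, 159 and 170 CPM in control (0.16 ± 0.04, edgeR adjusted p = 0.0125). MRPS23 had 105, 113 and 112 CPM with docetaxel, against 99.4, 98.0 and 99.0 CPM in control (0.16 ± 0.05, edgeR adjusted p = 0.0169). MRPL27, whose bacterial homologue reaches towards the site of peptide bond formation, had 82.1, 87.9 and 81.8 CPM with docetaxel, against 78.4, 72.2 and 75.5 CPM in control (0.16 ± 0.05, edgeR adjusted p = 0.0365). In MRPS23 the control libraries lay close together, within 99.4 and 98.0 CPM. MRPS2, MRPL34, MRPL55 and MRPL37 had log2 fold changes of 0.17, 0.16, 0.19 and 0.12, with edgeR adjusted p between 0.0191 and 0.0441. MRPL37 lies outside the naming rule and was named after its value was seen. In each of the 4, all docetaxel libraries lay above all control libraries. Leaving out a library gave these genes the following adjusted p by edgeR where the call was lost. Without docetaxel 2 it was 0.0883 for MRPL28, 0.156 for MRPS34, 0.102 for MRPL14, 0.107 for MRPS23, 0.237 for MRPL27, 0.150 for MRPS2, 0.198 for MRPL34 and 0.0960 for MRPL37. Without control 2 it was 0.0724 for MRPS34, 0.0829 for MRPL14, 0.159 for MRPL27, 0.0996 for MRPS2, 0.182 for MRPL34, 0.112 for MRPL55 and 0.167 for MRPL37. Without docetaxel 3 it was 0.0956 for MRPS23, 0.0699 for MRPL27, 0.124 for MRPS2, 0.106 for MRPL55 and 0.298 for MRPL37. Without control 3 it was 0.0560 for MRPS23, 0.0961 for MRPL27 and 0.119 for MRPL37. Without control 1 it was 0.0889 for MRPL55 and 0.0526 for MRPL37, and without docetaxel 1 it was 0.125 for MRPL55 and 0.0645 for MRPL27. The sign of the log2 fold change stayed positive for every one of the 9 genes in each of these fits.

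The gene that moved furthest fell. MRPL42 encodes a large-subunit protein without a bacterial counterpart and lies at chr12:93467488-93516213 on the plus strand (GRCh38, GENCODE 29). It had 68.8, 64.5 and 62.1 CPM in the docetaxel libraries, against 84.5, 90.3 and 85.1 CPM in the control libraries. The highest docetaxel library was well below the lowest control library, and the log2 fold change was -0.41 ± 0.05 (SE, n = 3 each; edgeR adjusted p = 3.99e-06), a level 0.75 times that of control. It was called lower in 16 of 17 alternative fits, and its call was lost with GC and length offsets together with a replicate block (edgeR adjusted p = 0.0603). With offsets alone its log2 fold change was -0.17 ± 0.05 (edgeR adjusted p = 0.0324).

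The 3 other genes called lower changed by less. MRPL19 is the homologue of a bacterial protein at the contact between the subunits, and it had 73.1, 62.1 and 62.1 CPM with docetaxel, against 78.2, 78.4 and 75.2 CPM in control (log2 fold change -0.23 ± 0.06, edgeR adjusted p = 0.00531). Docetaxel 1 stood nearest to the control libraries. MRPS35, a small-subunit protein, had 130, 123 and 125 CPM with docetaxel, against 137, 147 and 138 CPM in control (-0.16 ± 0.05, edgeR adjusted p = 0.0129). MRPL50 had 42.2, 38.99 and 40.7 CPM with docetaxel, against 43.8, 47.1 and 48.4 CPM in control (-0.19 ± 0.06, edgeR adjusted p = 0.0340). None of the 3 overlapped between groups. Without docetaxel 3 the adjusted p was 0.0744 for MRPL19, 0.0762 for MRPS35 and 0.103 for MRPL50. Without control 2 it was 0.0752 for MRPS35 and 0.107 for MRPL50, and for MRPL50 it was 0.163 without control 3 and 0.120 without docetaxel 2. With GC and length offsets the 3 log2 fold changes were -0.03, -0.04 and 0.06, and none was called.

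Genes that rose and genes that fell differed in base composition. The median GC content of the longest transcript was 59.9% for the 13 genes called higher, 38.3% for the 4 called lower and 47.2% for the 60 others. Of 20 genes over 55% GC, 10 were called higher and 0 lower, with a median log2 fold change of 0.16. Of all 4945 tested genes over 55% GC, 26.9% were called higher, also with a median of 0.16. Of 30 genes under 45% GC, 2 were called higher (MRPS23 and MRPL27) and 4 lower, with a median of -0.04. Of all 5783 tested genes in that class, 0.380% were called higher and 21.1% lower, with a median of -0.14. In the class between, 1 of 27 genes was called higher and 0 lower, with a median of 0.08 against 0.02 over all 5693 tested genes. Across the 77 genes, log2 fold change and GC content had a Spearman rho of 0.63 and a Pearson r of 0.61, and over all 16421 tested genes with a GC value 0.54 and 0.41. Genes share the libraries and are not independent replicates, so these values describe the trend.

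**Figure D2:**
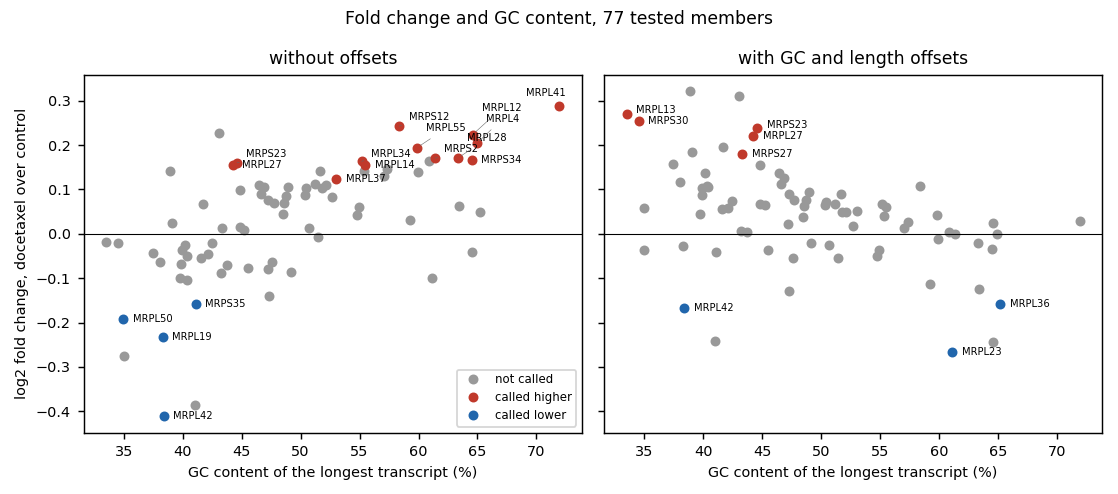
Log2 fold change of docetaxel over control (y axis) against the GC content of the longest transcript in percent (x axis) for the 77 tested genes, without offsets (left) and with GC and length offsets (right); red genes were called higher, blue lower and grey not called. On the left the median GC content is 59.9% in the genes called higher and 38.3% in those called lower, and on the right the rank correlation with GC content is -0.48.

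The trend differed in size between libraries. Over the 20 genes above 55% GC, the median deviation from each gene's mean on the log2 scale was 0.04, 0.14 and 0.06 in the 3 docetaxel libraries, against -0.05, -0.14 and -0.05 in the 3 control libraries. Docetaxel 2 and control 2 stood furthest from 0, and these are the libraries whose removal lowered the number of genes called higher most. Over the 30 genes under 45% GC, the same median was -0.02, 0.00 and -0.04 in the docetaxel libraries, against 0.02, 0.05 and 0.01 in the control libraries.

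**Figure D3:**
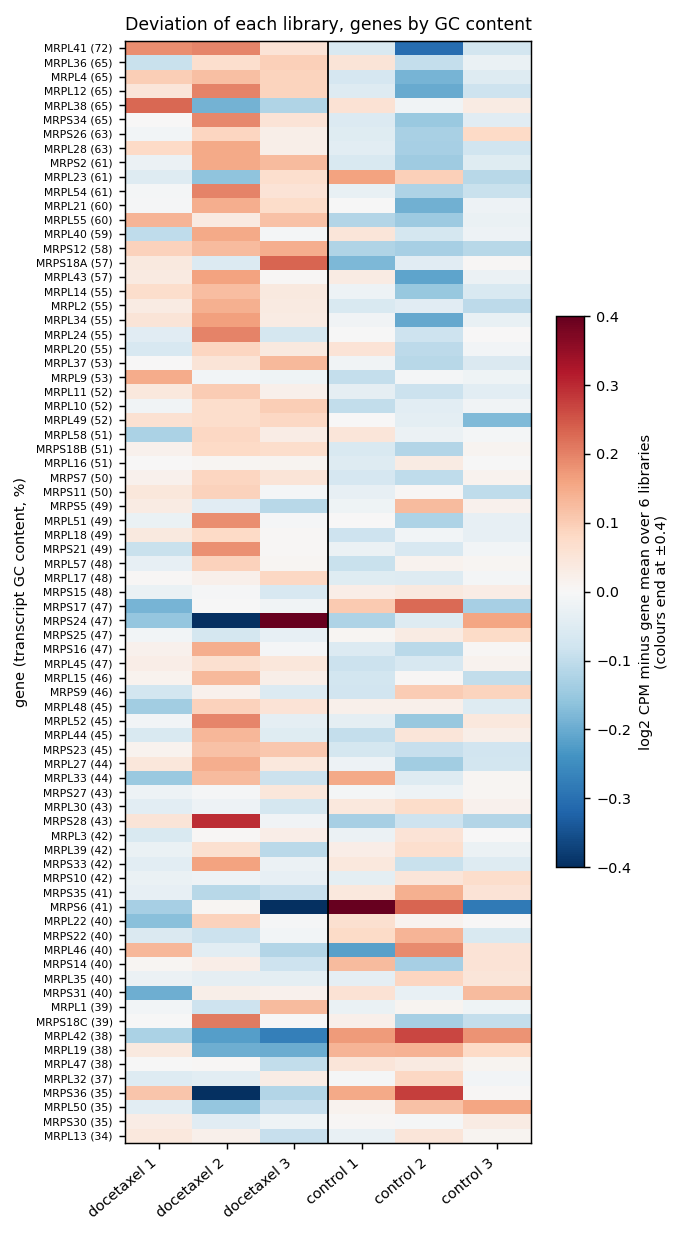
Heat map of the 77 tested genes (rows, ordered by transcript GC content, given in brackets in percent) in the 6 libraries (columns, docetaxel left of control), coloured by the log2 CPM minus the gene's mean over all libraries. The rows above 55% GC are mostly red in docetaxel and blue in control, most in docetaxel 2 and control 2, whose medians are 0.14 and -0.14.

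When the fit carried an offset for each gene and library that removes the smooth trend with GC content and length, 5 of the 77 genes were called higher (6.49%) and 3 lower (3.90%). Over all tested genes, the same fit called 2.82% higher, 1.59% lower and 4.41% in either direction. The median log2 fold change was 0.05. Without and with offsets, 3 genes were called in the same direction, namely MRPS23 and MRPL27 higher and MRPL42 lower. MRPS23 had a log2 fold change of 0.24 with offsets (edgeR adjusted p = 0.000669) and MRPL27 of 0.22 (adjusted p = 0.00467). The other genes called with offsets were named after their values were seen. MRPL13 (0.27), MRPS30 (0.25) and MRPS27 (0.18) were called higher only with offsets, and MRPL23 (-0.27) and MRPL36 (-0.16) were called lower only with them. With offsets for GC content without length, MRPS27 (edgeR adjusted p = 0.0928) and MRPL23 (adjusted p = 0.0544) were not called. In these 5 genes the CPM of the groups overlapped: MRPS30, for one, had 106, 100 and 102 CPM with docetaxel, against 104, 103 and 106 CPM in control. With offsets, the trend across the 77 genes ran the other way, with a Spearman rho of -0.48 and medians of 0.10, 0.05 and 0.00 from the lowest to the highest GC class. Whether the GC trend arose in the cells or in the libraries was not tested.

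The summed share of these genes in the counted reads changed little. They held 0.663%, 0.687% and 0.665% of the counts in the docetaxel libraries, against 0.664%, 0.651% and 0.660% in the control libraries. Docetaxel 2 stood apart upwards and docetaxel 1 lay within the control range, with means of 0.672 ± 0.0135% and 0.658 ± 0.00651% (SD, n = 3 each). On a per-length scale the share was 0.999 ± 0.0184% of the length-scaled total (TPM, counts per base of gene length scaled to a sum of 1000000 in each library) with docetaxel and 0.957 ± 0.0148% in control. On that scale each docetaxel library (0.991%, 1.02% and 0.986%) lay above each control library (0.972%, 0.943% and 0.956%).

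Calls fell in both subunits. Of 29 tested large-subunit proteins with a bacterial homologue, 7 were higher and 1 was lower, with a median log2 fold change of 0.07. Of 21 large-subunit proteins without one, 2 were higher and 2 were lower (median 0.03). Of 15 small-subunit proteins with a bacterial homologue, 2 were higher and 0 lower (median 0.07), and of 11 without one, 2 were higher and 1 was lower (median 0.06). Differences between these classes were not tested. MRPS36 carries a ribosomal symbol but is known as a subunit of the 2-oxoglutarate dehydrogenase complex. It had 14.0, 9.68 and 11.97 CPM with docetaxel, against 14.4, 15.7 and 13.0 CPM in control, and was not called (log2 fold change -0.27 ± 0.12, edgeR adjusted p = 0.108).

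Several genes with a role beyond the core of the ribosome were not called. MRPL58 is a peptidyl-tRNA hydrolase that releases peptides from stalled mitochondrial ribosomes, and its log2 fold change was -0.01 ± 0.06 (edgeR adjusted p = 0.955), with a 95% interval from -0.12 to 0.11. MRPL10 anchors MRPL12 in the stalk, and it had 67.3, 71.4 and 72.8 CPM with docetaxel, against 63.5, 66.0 and 67.3 CPM in control (0.10 ± 0.05, edgeR adjusted p = 0.203). Its lowest docetaxel library was level with the highest control library, while MRPL12 itself was called. MRPS30, which despite its symbol sits in the large subunit and is also known as PDCD9, had a log2 fold change of -0.02 ± 0.05 (edgeR adjusted p = 0.831).

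The paralogs MRPS18A, MRPS18B and MRPS18C descend from 1 bacterial protein and take different places in the ribosome, MRPS18A in the large subunit. Their log2 fold changes were 0.15 ± 0.13, 0.11 ± 0.04 and 0.14 ± 0.10, and edgeR called none (adjusted p = 0.529, 0.0816 and 0.415). MRPS18B had 156, 163 and 162 CPM with docetaxel, against 148, 143 and 156 CPM in control, and its groups did not overlap. Per length, MRPS18B had 252 ± 3.03 TPM with docetaxel and 239 ± 6.70 TPM in control, MRPS18A had 15.6 ± 1.73 TPM with docetaxel and 14.5 ± 0.919 TPM in control, and MRPS18C had 7.92 ± 0.536 TPM with docetaxel and 7.40 ± 0.403 TPM in control (SD, n = 3 each). Other genes overlap 47.0% of the exonic bases of MRPS18A and 40.2% of those of MRPS18C, and 0% of those of MRPS18B.

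Levels per length spanned a wide range, with a median of 71.4 TPM over the 78 genes. MRPL41 was highest, at 1082 ± 57.6 TPM with docetaxel and 911 ± 72.3 TPM in control. MRPS34 followed with 640 ± 31.3 TPM with docetaxel and 587 ± 14.6 TPM in control. MRPL14 had 536 ± 11.2 TPM with docetaxel and 495 ± 18.0 TPM in control, and MRPL51 had 521 ± 33.4 TPM with docetaxel and 498 ± 17.1 TPM in control, so that the place of MRPL14 before MRPL51 lay within the spread of the libraries. MRPS21 followed with 403 ± 30.8 TPM with docetaxel and 396 ± 2.05 TPM in control (SD, n = 3 each). MRPL51 and MRPS21, both abundant, were not called.

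**Figure D4:**
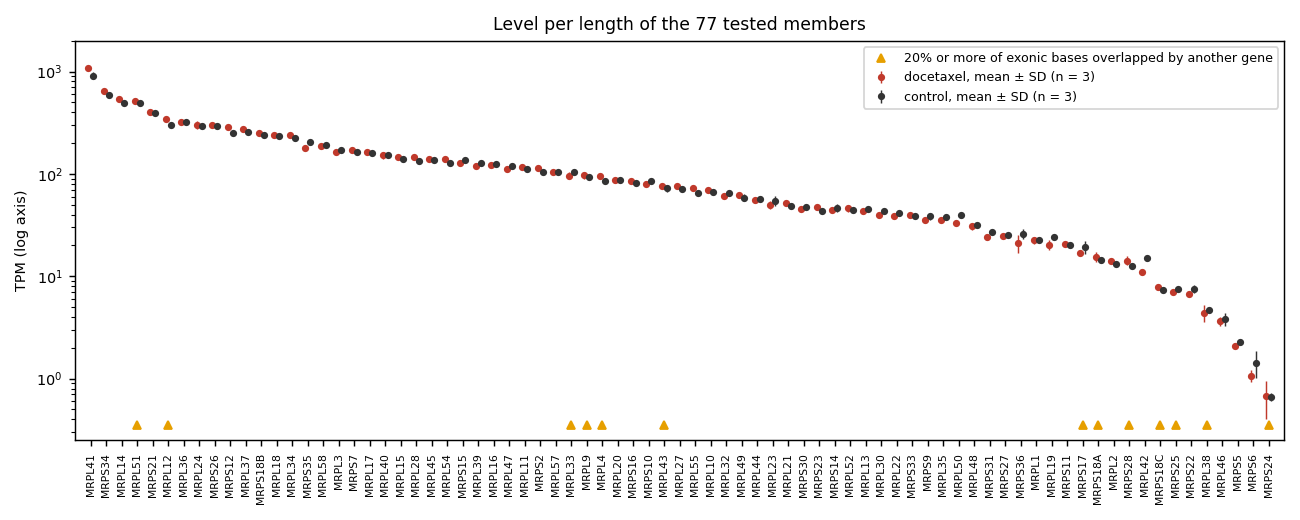
Level per length in TPM (y axis, log axis) of the 77 tested genes (x axis, sorted by mean), as mean ± SD of 3 docetaxel libraries (red, left) and 3 control libraries (dark, right); triangles mark genes of whose exonic bases other genes overlap 20% or more. Means run from 997 TPM for MRPL41 to 0.669 TPM for MRPS24, and the groups lie close together along the whole range.

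Most proteins of the ribosome are present once in each particle, while the transcript levels differed widely and 9 of the 78 genes had under 10 TPM. TPM divide by the deposited gene length, which can differ from the length of the expressed transcript, so these levels depend on it. Before that division, MRPL41 averaged 208 CPM and MRPL46 8.53 CPM, against 997 and 3.72 TPM. The lowest after MRPL53 were MRPS24 with 0.669 TPM and 149 reads in all, MRPS6 with 1.25, MRPS5 with 2.19 and MRPL46 with 3.72 TPM. MRPS6 had 2.26, 2.49 and 1.87 CPM with docetaxel, against 3.70, 2.91 and 2.04 CPM in control. Its groups overlapped, and its log2 fold change of -0.38 ± 0.23 was not called (edgeR adjusted p = 0.302). MRPS24, MRPS5 and MRPL46 had log2 fold changes of 0.08 ± 0.45, -0.08 ± 0.11 and -0.03 ± 0.13 and were not called. In GENCODE 29, 14 of the 78 genes share 20% or more of their exonic bases with another gene, and 5 of the 9 genes under 10 TPM are among them. The median level was 16.6 TPM for the 14 and 78.2 TPM for the others. MRPL53 shares 45.2% of its exonic bases with CCDC142 and MRPS24 23.2% with the readthrough gene URGCP-MRPS24. MRPL12 had 68.2% overlapped and still 324 TPM. Reads that touch more than 1 gene can be dropped in counting, the rule used is not given in the sources used here, and the part of overlap in these levels was not tested. Counts of the 14 genes are uncertain for that reason. GENCODE 29 gave coordinates for 57356 of the 78932 rows, so overlaps with the other rows were not counted and may add to these. Pseudogenes with MRP-like names held 646 counts in 80 rows, 49 of them at 0, against 1586833 counts for the 78 genes.

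The sequences around the starts of these genes were searched for 5 motifs. Start-site windows from 250 bases before to 50 bases after the start (RefSeq, GRCh38.p14) were found for 69 of the 78 genes, 85 windows in all. The ETS motif CCGGAAG, which is bound by GABPA, a factor known for nuclear genes of mitochondrial proteins, was present on either strand in 38.8% of these windows. It was present in 16.2% of the 16431 windows of tested genes and in 10.3% of all 35116 windows. The YY1 motif AAGATGGCG was present in 15.3%, against 3.20% of windows of tested genes and 1.75% of all windows. The palindromic core motif of NRF1 was present in 1.18%, against 1.89% and 1.24%. The CCAAT box CCAAT was present in 32.9%, against 34.6% and 34.6%, and the TATA box TATAAA in 3.53%, against 6.49% and 11.5%. These are matches of letters, on both strands, and a window without a match says only that these letters are not in it.

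**Figure D5:**
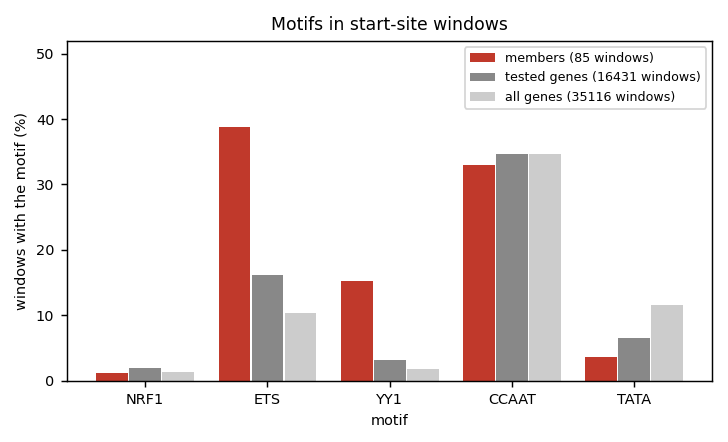
Share of start-site windows, in percent (y axis), that hold each of 5 motifs on either strand (x axis), in the 85 windows of mitochondrial ribosomal protein genes (red), 16431 windows of tested genes (dark grey) and all 35116 windows (light grey). The ETS motif reaches 38.8% of the 85 windows, against 16.2% and 10.3%, and the YY1 motif 15.3%, against 3.20% and 1.75%.

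To show where the ETS motif lies, the 100 bases before the start of 4 genes called higher that hold it are printed 5′ to 3′ on the strand of the gene, with the motif or its reverse complement CTTCCGG in capitals. MRPS12 (chr19:38930854-38930953, plus strand) has it 15 bases before 1 of its 2 listed starts. The same site begins 5 bases before the other start. MRPL27 (chr17:50373185-50373284, minus strand) and MRPS34 (chr16:1773135-1773234, minus strand) hold it 2 and 3 times, and MRPS23 (chr17:57850045-57850144, minus strand) has it on the other strand.
MRPS12: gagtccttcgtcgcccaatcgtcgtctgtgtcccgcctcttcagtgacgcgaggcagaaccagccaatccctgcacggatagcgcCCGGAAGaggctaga
MRPL27: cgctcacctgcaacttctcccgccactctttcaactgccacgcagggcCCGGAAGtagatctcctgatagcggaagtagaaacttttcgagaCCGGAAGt
MRPS34: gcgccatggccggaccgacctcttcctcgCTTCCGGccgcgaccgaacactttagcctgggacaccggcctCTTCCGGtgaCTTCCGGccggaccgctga
MRPS23: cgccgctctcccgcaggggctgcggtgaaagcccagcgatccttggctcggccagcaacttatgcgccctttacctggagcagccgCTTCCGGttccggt

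The genes at both ends of the range hold no ETS, YY1 or NRF1 motif in the same stretch. MRPL41 (chr9:137551779-137551878, plus strand), which had the highest log2 fold change, is 76% G and C there, and MRPL42 (chr12:93467414-93467513, plus strand), which had the lowest, is 68%.
MRPL41: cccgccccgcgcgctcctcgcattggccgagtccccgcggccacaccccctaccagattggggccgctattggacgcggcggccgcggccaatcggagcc
MRPL42: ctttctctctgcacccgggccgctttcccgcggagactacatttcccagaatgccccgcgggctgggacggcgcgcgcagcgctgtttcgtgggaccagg

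Over all windows, 39 ETS matches lay before the start and 6 after it, with a median position of the first base at -26. Windows of nearby starts overlap, so the 45 matches are 40 distinct places in the genome, 1 of which lies before one start and after another. For YY1, 10 sites lay after the start and 4 before it, among them sites at base 9 of MRPL42 and base 24 of MRPL50. Of 29 tested genes with an ETS motif, 5 were called higher and 0 lower, with a median log2 fold change of 0.07. Of 39 without it, 8 were higher and 4 lower, with a median of 0.04. Of 13 genes with a YY1 motif, 0 were called higher and 2 lower (median -0.03), and of 55 without it 13 were higher and 2 lower (median 0.07). The 4 genes called lower had transcript GC contents between 35.0% and 41.1%. Among genes with a YY1 motif, GC and length offsets left MRPL50 uncalled, MRPS30 called higher, and MRPL36 and MRPL42 called lower. No test was made of these differences, and GC content was not held equal between genes with and without a motif.

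The factors that bind these motifs were themselves measured, and are named here because their motif was searched. GABPA had 19.4, 15.9 and 17.6 CPM with docetaxel, against 20.2, 22.6 and 19.1 CPM in control, and was not called (log2 fold change -0.23 ± 0.09, edgeR adjusted p = 0.0936). Without docetaxel 1 it was called lower (-0.32, edgeR adjusted p = 0.0237), and with GC and length offsets its log2 fold change was 0.0075 (edgeR adjusted p = 0.981). YY1 had 131, 128 and 128 CPM with docetaxel, against 133, 145 and 144 CPM in control (-0.13 ± 0.05, edgeR adjusted p = 0.0443). Its groups did not overlap, but it lost the call in 11 of 17 alternative fits, among them those without control 2 (adjusted p = 0.149), control 3 (0.187), docetaxel 2 (0.0910) and docetaxel 3 (0.156), and with GC and length offsets (0.136). NRF1 had 15.0, 15.2 and 14.8 CPM with docetaxel, against 15.7, 14.3 and 16.0 CPM in control (-0.03 ± 0.10, edgeR adjusted p = 0.870).

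Among the 15 regulators of mitochondrial transcription and of nuclear genes for mitochondria, 2 were called higher (13.3%) and 3 lower (20%). Over all tested genes the shares were 9.14% and 7.82%. The median log2 fold change of the 15 regulators was -0.13. Without control 2 or without docetaxel 2, 1 was lower. TFAM, which packs mitochondrial DNA and acts in its transcription, had 37.3, 32.2 and 28.7 CPM with docetaxel, against 42.9, 45.1 and 42.6 CPM in control. All docetaxel libraries were below all control libraries, and the log2 fold change was -0.41 ± 0.08 (edgeR adjusted p = 0.000302). With GC and length offsets it was -0.22 (edgeR adjusted p = 0.0480). TFAM was not called with GC offsets (edgeR adjusted p = 0.0527) or with GC and length offsets and a replicate block (adjusted p = 0.0620). POLRMT, the mitochondrial RNA polymerase, and the receptor ESRRA were called higher, at 0.19 ± 0.04 and 0.20 ± 0.05 (edgeR adjusted p = 0.00289 and 0.00473), and were not called with offsets. GABPB1, the partner of GABPA, was called lower at -0.25 ± 0.08 (edgeR adjusted p = 0.0261), and with offsets it was at -0.07 and not called (edgeR adjusted p = 0.746). Without offsets its adjusted p was 0.0605 without control 1, 0.202 without control 2 and 0.142 without docetaxel 2.

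Of 5 further proteins of the mitochondrial ribosome without an MRP symbol, 2 were called higher. AURKAIP1, a small-subunit protein, had 200, 215 and 205 CPM with docetaxel, against 184, 165 and 174 CPM in control (log2 fold change 0.25 ± 0.04, edgeR adjusted p = 0.000248). GADD45GIP1, a large-subunit protein, had 243, 240 and 243 CPM with docetaxel, against 221, 219 and 229 CPM in control (0.12 ± 0.04, edgeR adjusted p = 0.0386). GADD45GIP1 lost the call in each fit that left out a library, with adjusted p between 0.0582 without control 3 and 0.140 without docetaxel 1. CHCHD1, the GTP-binding protein DAP3 and PTCD3 had log2 fold changes of -0.06, 0.03 and 0.01 and were not called. With offsets, 0 of the 5 were called.

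Of 27 tested genes for assembly of the mitochondrial ribosome and modification of its RNA, 3 were called higher (11.1%) and 0 lower. Over all tested genes the shares were 9.14% and 7.82%. The median log2 fold change of the list was 0.08. The number higher was 1 without control 2 or without docetaxel 3 and 5 with upper-quartile scaling. DHX30 and DDX28, RNA helicases of ribosome assembly, were at 0.15 ± 0.04 and 0.21 ± 0.07 (edgeR adjusted p = 0.00693 and 0.0308), and RCC1L at 0.19 ± 0.05 (edgeR adjusted p = 0.00719). ERAL1, a chaperone of the small ribosomal RNA, was at 0.13 ± 0.05 and was not called (edgeR adjusted p = 0.0600). The adjusted p was 0.0603 for DHX30 without docetaxel 3 and 0.0589 for RCC1L without control 2. For DDX28 it was 0.154 without control 2, 0.0741 without control 3, 0.0859 without docetaxel 1 and 0.150 without docetaxel 3. With offsets 1 gene of the list was called, MALSU1, a factor that binds MRPL14 during assembly (0.21, edgeR adjusted p = 0.0468), and with GC offsets 0 were called higher.

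Of 17 factors of mitochondrial translation, TUFM alone was called, at 0.12 ± 0.04 (edgeR adjusted p = 0.0430), and the median of the list was -0.07. Thus 5.88% of the list was called higher, against 9.14% of all tested genes. TUFM, the elongation factor that brings aminoacyl-tRNA to the ribosome, had 438, 483 and 463 CPM with docetaxel, against 436, 401 and 434 CPM in control. Docetaxel 1 lay next to the control libraries, and the adjusted p was 0.0571 without control 1, 0.236 without control 2, 0.0718 without control 3, 0.275 without docetaxel 2 and 0.155 without docetaxel 3. With GC and length offsets TUFM was at -0.0053 (edgeR adjusted p = 0.966) and 0 of the 17 genes were called. TUFM was also not called by DESeq2 (adjusted p = 0.0593) or by edgeR with RLE scaling (0.0579) or library-size scaling (0.150). The release factor MTRF1L (-0.33 ± 0.13), the RNA-binding protein LRPPRC (-0.08 ± 0.04) and the translational activator TACO1 (0.26 ± 0.13) were not called (edgeR adjusted p = 0.0952, 0.178 and 0.182).

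The transcripts that these ribosomes translate, and the ribosomal RNAs they contain, come from the mitochondrial genome. Of its 15 tested genes, edgeR called 0 higher and 0 lower, against 9.14% and 7.82% of all tested genes. The count at an unadjusted p under 0.05 was also 0, and it was 0 called by DESeq2 and by limma-voom. The median log2 fold change was 0.01. MT-ATP6 had 8083, 7637 and 7745 CPM with docetaxel, against 8193, 7820 and 8397 CPM in control (-0.06 ± 0.03, edgeR adjusted p = 0.276). MT-ND6, MT-RNR1 and MT-ND1 were at -0.08 ± 0.05, 0.06 ± 0.04 and 0.05 ± 0.04. Without docetaxel 1, MT-RNR1 was called higher (0.10) and MT-ATP6 and MT-ND6 lower (-0.10 and -0.16); without docetaxel 2, 1 gene was lower, and with library-size scaling 2 were lower. With offsets MT-ND2 was called (0.10, edgeR adjusted p = 0.0380). Enrichment for poly(A) is meant to deplete ribosomal RNA, to which MT-RNR1 belongs.

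Of 79 cytosolic ribosomal protein genes, which build the other ribosome of the cell, 15 were called higher (19.0%) and 2 lower (2.53%). Over all tested genes the shares were 9.14% and 7.82%. The median log2 fold change of the 79 genes was 0.05. Leaving out docetaxel 2 gave 9 higher and 14 lower, and leaving out docetaxel 3 gave 7 higher and 1 lower. Library-size scaling gave 5 lower. RPS2, RPS9, RPLP1 and RPSA had the smallest p and were at 0.16, 0.19, 0.16 and 0.15 (edgeR adjusted p between 0.000774 and 0.00170). With GC and length offsets 8 were called higher and 3 lower, and RPS2 (0.04, edgeR adjusted p = 0.525) and RPS9 (0.09, adjusted p = 0.144) were not called. The difference between the cytosolic and the mitochondrial genes was not tested.

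Many mitochondrial ribosomal protein genes start close to a gene on the other strand. In GENCODE 29 on GRCh38, 33 of them have such a start within 1000 bases, and in 28 pairs both genes were tested. In 25 of the 28 pairs, both log2 fold changes had the same sign, and with GC and length offsets in 15 of the 28. The share of same-sign pairs among other neighbouring genes was not computed, so these counts are not a trait of these genes. Both genes were called in 1 pair, MRPS34 (0.17) and EME2 (0.32 ± 0.10, edgeR adjusted p = 0.0166), whose starts are 52 bases apart. EME2 encodes a subunit of a DNA structure-selective nuclease. In 5 pairs the mitochondrial ribosomal protein gene alone was called, in 1 pair the neighbour alone, and in 21 neither. That neighbour was PPP1R10, beside MRPS18B, at 0.24 ± 0.06 (edgeR adjusted p = 0.00287). MRPL27 and EME1 start 6 bases apart, with log2 fold changes of 0.16 and 0.15, of which the second was not called (edgeR adjusted p = 0.226). MRPL46 and MRPS11 start 34 bases apart and encode a protein of each subunit, with log2 fold changes of -0.03 ± 0.13 and 0.09 ± 0.06. Neighbours share base composition as well as a start region, and the strand setting of the counting is not given in the sources used here, so reads of overlapping ends can be shared.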

How the data were processed

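Poly(A)-enriched RNA from 6 libraries was sequenced as read pairs of 150 bases. The authors deposited 1 table of raw counts per gene, made with featureCounts 2.0.1 on GRCh38 with MultiQC 1.11 reports, per the submitters' processing notes, and a gene length column, in other units (bases). Not given in the sources used here are the aligner, annotation release, strand setting and treatment of overlaps. Totals ranged from 38622062 to 41675186 counts.

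Symbols matched 42179 of 78932 rows. Coordinates and GC content came from GENCODE 29. Genes were kept by filterByExpr and fitted across all 18040 with edgeR 4.0.16 (R 4.3.3; TMM, quasi-likelihood with robust estimation, two-sided, Benjamini-Hochberg over all genes, called at adjusted p under 0.05). Common BCV, the biological coefficient of variation, came to 0.0759. CPM are TMM-scaled and TPM use the deposited length. Offsets were loess trends (span 0.5) of each library's log2 CPM minus the gene's mean over the libraries. The trend was fitted on GC content alone or on GC content and length together. The tests were checked on simulated data with changes larger than those of the mitochondrial ribosomal protein genes called here. That check does not cover changes of their size. Alternatives were other scalings and filters, DESeq2 1.42.0, limma-voom 3.58.1, a replicate block, offsets and leaving out each library. No 2 libraries of a group agreed within sampling noise.

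Named are up to 12 called genes per direction by p, the 5 highest and 5 lowest by TPM, 8 genes picked for their role and up to 4 per further list by p. The genes and lists were chosen with earlier results of these data known.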

Additional observations from a re-analysis of the deposited data

How the results depend on the processing

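Beside 13 genes higher and 4 lower, GC offsets gave 5 and 2, GC and length offsets 5 higher, the same offsets with a replicate block 5 and 1, and library-size scaling 6 higher. Leaving out each library gave 5 to 11 higher and 1 to 5 lower. Over all tested genes, 1649 higher and 1410 lower became 1096 higher with library-size scaling, 508 and 287 with GC and length offsets, 437 and 321 with GC offsets and 353 and 202 with offsets and block, and 990 to 1397 higher and 740 to 1841 lower when each library was left out. The median log2 fold change of the genes stayed between 0.01 and 0.07. Deviations of same-numbered libraries from their group means had correlations of 0.0079, 0.0069 and 0.016. For differently numbered libraries they ranged from -0.0143 to 0.0062. Values this small cannot decide whether same-numbered libraries shared a culture or day, which the labels do not state. The replicate block alone gave 9 higher and 3 lower, and 1283 and 1106 over all genes. Sign changes of genes called in either fit arose only with offsets. With GC and length offsets the log2 fold changes were -0.0386 for GADD45GIP1, 0.27 for MRPL13, -0.0197 for MRPL28, -0.16 for MRPL36, -0.00123 for MRPL4, 0.0582 for MRPL50, -0.000382 for MRPS2, 0.25 for MRPS30, -0.0337 for MRPS34, -0.0252 for POLRMT and -0.00529 for TUFM. With GC offsets they were -0.000435 for DHX30, -0.0335 for GADD45GIP1, 0.28 for MRPL13, -0.0136 for MRPL28, -0.15 for MRPL36, 0.0781 for MRPL50, 0.26 for MRPS30, -0.0301 for MRPS34, -0.023 for POLRMT and -0.000512 for TUFM. With offsets and block they were -0.0387 for GADD45GIP1, 0.27 for MRPL13, -0.0202 for MRPL28, -0.16 for MRPL36, -0.00118 for MRPL4, 0.0596 for MRPL50, -0.00162 for MRPS2, 0.25 for MRPS30, -0.0343 for MRPS34, -0.0254 for POLRMT and -0.00551 for TUFM. The cause was not tested. Over 60 named genes and 1018 alternative values, 797 kept direction and call, and a further 29 stayed uncalled with the sign changed. At the depth of these libraries, MRPS24 and MRPS6 had standard errors of 0.45 and 0.23, against a median of 0.06, so a change of the size called in other genes was not detectable there.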
